A study of Mus with 18 samples.

Results

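The 9 genes described here encode RNA-binding proteins that set how long cytokine mRNAs last: Zfp36, Zfp36l1, Zfp36l2, Zc3h12a, Rc3h1, Rc3h2, Elavl1, Hnrnpd and Khsrp. They were chosen by symbol from the 35510 genes of the read-count table, and all 9 were present and passed the filter on low counts that left 13482 tested genes. RNA was sequenced from RAW264.7, a mouse macrophage-like cell line, in 18 libraries, 3 in each of 6 groups. Of these, 4 groups received a polymer after LPS stimulation: LPS + POx-SA, LPS + PPLG-SA, LPS + PPLG-2V-SA and LPS + PPLG-4V-SA. The remaining groups received LPS alone or no treatment. The series design calls the polymers sialic polymers. The labels give no dose, time or meaning of the polymer codes, so doses and times could differ between groups. They do not say whether the 3 libraries of a group came from separate cultures. So p-values measure only the spread between libraries, pooled over all 6 groups.

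Many cytokine mRNAs carry AU-rich elements or stem-loops in their 3′ untranslated region. Proteins of the ZFP36 family bind AU-rich elements through zinc fingers and bring in deadenylases, which shorten the poly(A) tail and start decay. Regnase-1 cuts stem-loops as an endonuclease, and the Roquin proteins bind stem-loops and bring in the same deadenylase complex. HuR binds AU-rich elements and mostly protects the transcript, whereas AUF1 and KSRP bind them and mostly promote decay. LPS, which Gram-negative bacteria carry on their surface, signals to macrophages by way of the receptor TLR4, and several of these regulators are themselves encoded by short-lived, LPS-responsive mRNAs.

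Levels are given as CPM, the counts of a gene divided by the library size after TMM adjustment and put on a common scale, with library values in the order of replicates 1, 2 and 3. Differences are log2 fold changes ± SE from the quasi-likelihood test of edgeR. A gene is said to rise or fall, or is called, where its Benjamini-Hochberg adjusted p over all tested genes was below 0.05. The test uses 1 estimate of the spread of each gene for all groups, while the spread differed between groups. The median SD of log2 CPM was 0.29 with LPS + POx-SA and 0.23 with LPS, against 0.097 to 0.12 in the other groups. Comparisons of the groups with wide spread may thus be called too readily, and those of the others too rarely. Total counts were 9755591 to 19759549 per library. All 11 macrophage markers were detected in every library and summed to 5134 to 11723 CPM. Of 8 neutrophil and mast cell markers, Elane, Mcpt8 and Cpa3 were at 0 in all 18 libraries. Ly6g, Mpo and Camp reached at most 0.23 CPM in a library, and S100a9 at most 8.19 CPM. S100a8 was the highest of the list, at up to 2148 CPM in a library, and the list's sum was 32.4 to 63.9 CPM with LPS + POx-SA, at most 0.46 CPM with the PPLG polymers, 156 to 239.9 CPM with LPS and 1951 to 2155 CPM in untreated libraries. Its part in the results below was not tested. Lymphocyte, fibroblast, and epithelial and endothelial lists summed to at most 6.77 CPM in any library. In bulk RNA, fewer cells of a type and less RNA per cell cannot be told apart.

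A pair of libraries stood apart from their groups. In LPS replicate 3 and LPS + POx-SA replicate 3, the 531 genes with an implied transcript length above 8000 bases lay low, at a median of -0.53 and -0.45 log2 units from their group means. The other libraries of these groups lay between 0.17 and 0.30. Of the genes described here, Rc3h1 and Rc3h2 lay furthest below their group means in both libraries. Their implied lengths, from the ratio of counts to FPKM, are 11919 and 9863 bases, and the part of length was not tested. Hnrnpd, at 9296 bases, lay within the range of the other libraries of its group in both. Differences of Rc3h1 and Rc3h2 that involve these groups are given with and without both libraries. The pair was chosen from these data, by a class of genes that holds both Roquin genes. Calls made without the pair are therefore descriptive.

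**Figure D1:**
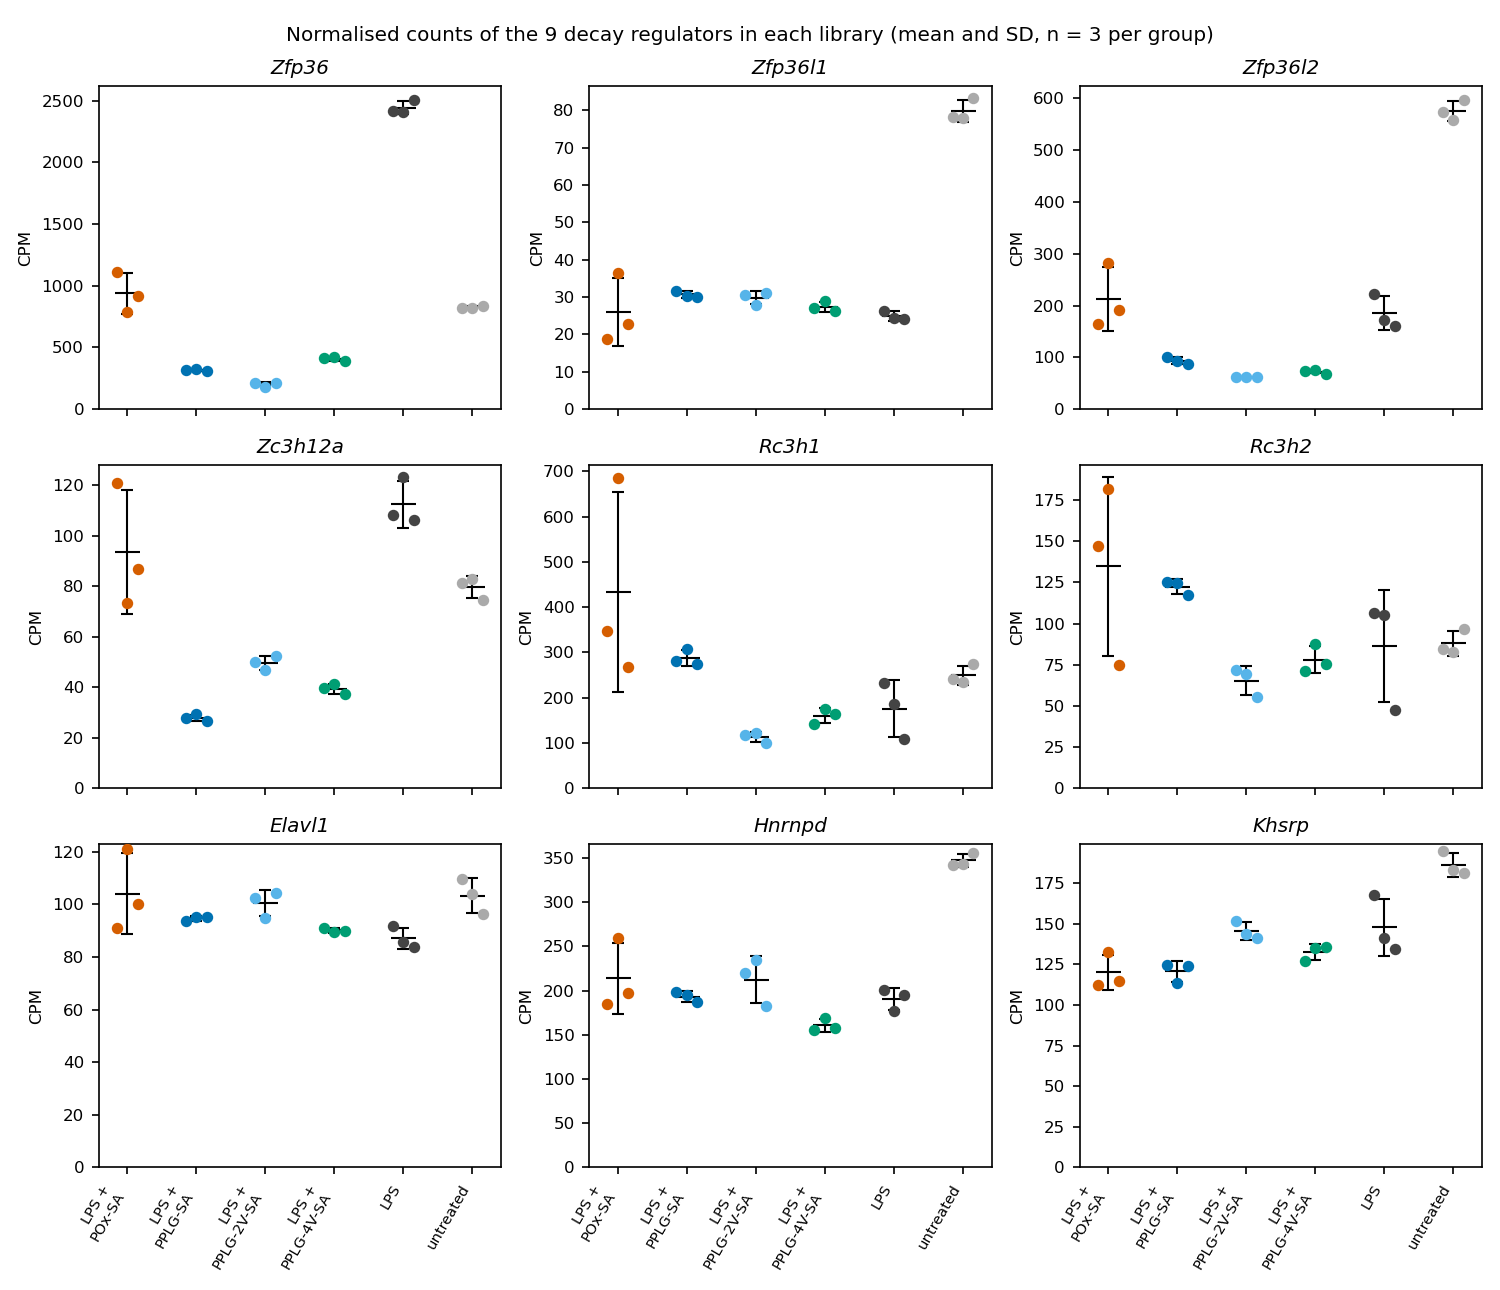
Normalised counts (CPM, linear axis from 0) of the 9 decay regulators in each library, by treatment group; points are libraries, and the bar and whiskers are the mean and SD (n = 3). Zfp36 is highest in LPS libraries and lowest with LPS + PPLG-2V-SA, Zfp36l1 and Hnrnpd are highest in untreated libraries, and Rc3h1 and Rc3h2 are scattered in the LPS and LPS + POx-SA groups.

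Per length, Zfp36 was the most abundant of the 9 genes in every group, and it had the widest range of group means. It encodes tristetraprolin, the decay factor best known for limiting TNF in macrophages, and its own mRNA carries AU-rich elements. Per length, its level was 1434 ± 48.7 FPKM in LPS libraries and 381 ± 5.66 FPKM in untreated libraries (SD, n = 3 each). By read count it ranked 25 to 27 among all genes in LPS libraries and 157 to 167 in untreated ones. Zfp36 had 2420.3, 2410.1 and 2503 CPM with LPS, against 822, 819 and 835 CPM without treatment. The groups did not overlap, and Zfp36 rose by 1.57 ± 0.11 on the log2 scale with LPS, or 2.96-fold (adjusted p = 4.35e-09, edgeR).

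The other members of the ZFP36 family moved the opposite way with LPS. Zfp36l1 encodes a related zinc-finger decay factor, and it had 26.4, 24.5 and 24.0 CPM with LPS, against 78.3, 78.0 and 83.2 CPM without treatment. Zfp36l1 fell by 1.68 ± 0.16 on the log2 scale with LPS (adjusted p = 1.26e-07, edgeR). Zfp36l2, the third of these family members, had 222, 172 and 161 CPM with LPS, against 573, 558 and 597 CPM without treatment. It fell by 1.64 ± 0.16 (adjusted p = 1.3e-07, edgeR). For both genes every LPS library lay below every untreated one.

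The makeup of the family differed with LPS. Zfp36 made up 96.0% ± 0.670 of the summed FPKM of Zfp36, Zfp36l1 and Zfp36l2 in LPS libraries, and 72.2% ± 0.457 in untreated libraries (SD, n = 3 each). The summed FPKM of the 3 genes was 1493 ± 46.7 with LPS and 528 ± 11.1 without treatment. Counts of Zfp36 per count of Zfp36l2, a ratio that needs no scaling between libraries, were 13.5 ± 2.39 with LPS and 1.43 ± 0.0356 without treatment.

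Zc3h12a, which encodes the endonuclease Regnase-1, rose less than Zfp36 with LPS. It had 108, 123 and 106 CPM with LPS, against 81.4, 83.1 and 74.7 CPM without treatment, with no overlap. Its log2 fold change was 0.50 ± 0.13 (adjusted p = 0.00391, edgeR).

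The Roquin genes were not called with LPS. Rc3h1 encodes Roquin-1, and it had 233, 187 and 108 CPM with LPS, against 241, 235 and 274 CPM without treatment. Rc3h2, which encodes the paralog Roquin-2, had 107, 105 and 47.3 CPM with LPS, against 84.8, 82.5 and 96.8 CPM without treatment. In both genes the lowest LPS value is that of replicate 3, in which long transcripts were low. The log2 fold changes were -0.51 ± 0.27 for Rc3h1 (adjusted p = 0.119, edgeR, and called at -0.76 without LPS replicate 1) and -0.03 ± 0.27 for Rc3h2 (adjusted p = 0.94, edgeR). With LPS replicate 3 and LPS + POx-SA replicate 3 left out, the log2 fold changes were -0.24 for Rc3h1 and 0.27 for Rc3h2. The second of these was then called (adjusted p = 0.0475, edgeR), and the part of the long transcripts in these differences was not tested.

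The AU-rich element binders without zinc fingers were lower with LPS, Hnrnpd by the most. Hnrnpd encodes AUF1, and it had 200.3, 177 and 194 CPM with LPS, against 342, 343 and 355 CPM without treatment. Hnrnpd fell by 0.87 ± 0.12 on the log2 scale (adjusted p = 7.32e-06, edgeR). Khsrp encodes KSRP, and it had 168, 141 and 135 CPM with LPS, against 195, 183 and 181 CPM without treatment. Its log2 fold change was -0.33 ± 0.10 (adjusted p = 0.00594, edgeR). Elavl1 encodes HuR, and it had 91.7, 85.9 and 83.9 CPM with LPS, against 109.6, 104 and 96.4 CPM without treatment. Its log2 fold change was -0.24 ± 0.10 (adjusted p = 0.0376, edgeR). The groups did not overlap for these 3 genes, but the differences of Khsrp and Elavl1 rested on the scaling. On plain library totals the median of all tested genes lay at 0.29, Khsrp at -0.060 and Elavl1 at 0.029, and neither was called. The call of Elavl1 was also lost without LPS replicate 2 or 3 and without untreated replicate 1 or 2, at log2 fold changes of -0.20 to -0.24.

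In all, with LPS against no treatment, 2 of the 9 regulators rose and 5 fell, against 30.8% of all tested genes called higher and 28.4% called lower. The median log2 fold change of the 9 was -0.33, against 0.02 over all tested genes. On deposited FPKM the split of all genes shifted to 5927 higher and 2304 lower, from 4149 higher and 3833 lower on counts.

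**Figure D2:**
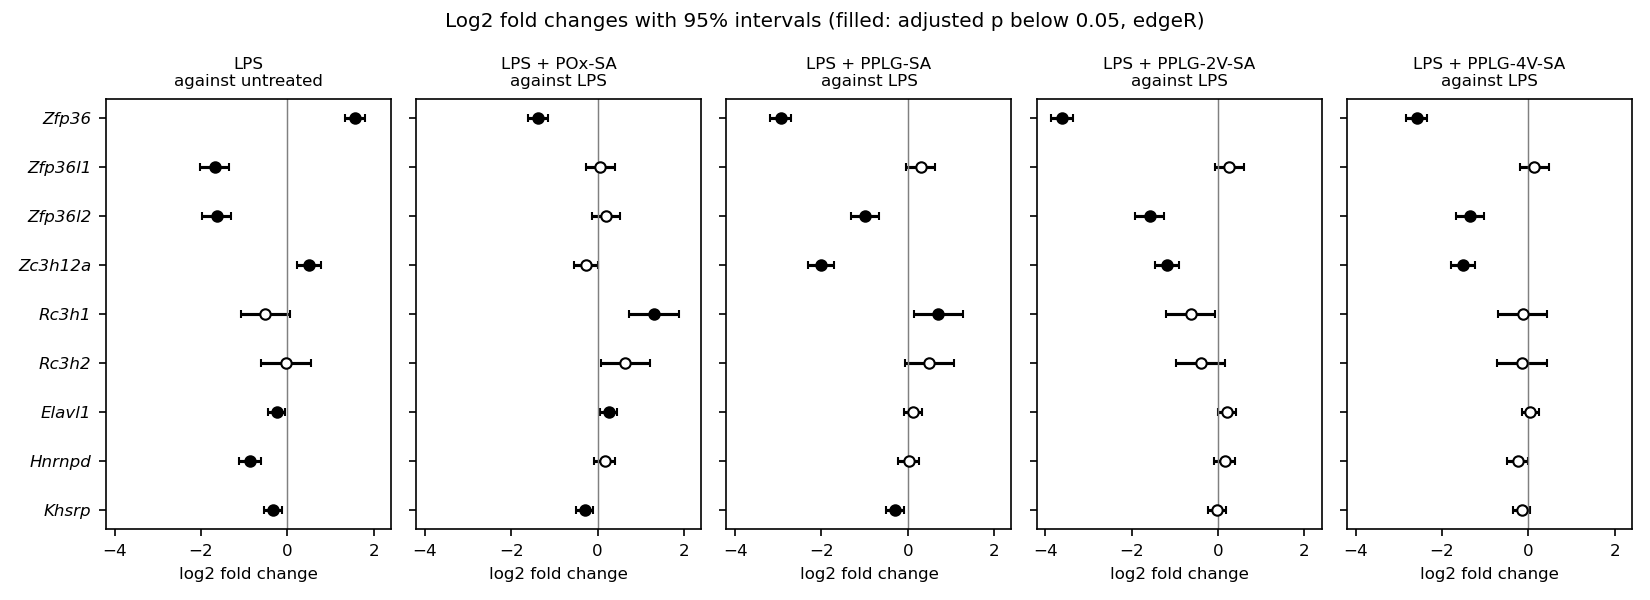
Log2 fold changes of the 9 decay regulators (x axis) with their 95% intervals from edgeR, one panel per comparison; filled points have an adjusted p below 0.05. The interval of Zfp36 lies to the right of 0 for LPS against untreated (1.33 to 1.80) and to the left of 0 in all 4 comparisons of a polymer with LPS, lowest for PPLG-2V-SA (-3.86 to -3.35).

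Zfp36 fell with every polymer after LPS, and it was the only 1 of the 9 genes to do so in this test. It had 1108, 785 and 919 CPM with LPS + POx-SA, and 319.6, 323 and 309.7 CPM with LPS + PPLG-SA. It had 212, 182 and 208 CPM with LPS + PPLG-2V-SA, and 412, 422 and 391 CPM with LPS + PPLG-4V-SA, against 2420.3, 2410.1 and 2503 CPM with LPS alone. No library of a polymer group reached an LPS library.

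The log2 fold change of Zfp36 against LPS was -1.38 ± 0.11 with POx-SA (adjusted p = 2.64e-08, edgeR) and -2.95 ± 0.12 with PPLG-SA (adjusted p = 2.17e-12, edgeR). It was -3.61 ± 0.12 with PPLG-2V-SA (adjusted p = 1.49e-13, edgeR) and -2.58 ± 0.11 with PPLG-4V-SA (adjusted p = 1e-11, edgeR). These are falls of 2.61-fold, 7.7-fold, 12.2-fold and 5.99-fold. The rank of Zfp36 by read count was 54 to 142 with LPS + POx-SA, 418 to 465 with LPS + PPLG-SA, 734 to 926 with LPS + PPLG-2V-SA and 262 to 303 with LPS + PPLG-4V-SA.

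The level reached was below that of untreated cells with the PPLG polymers. Against untreated libraries, Zfp36 was lower by a log2 fold change of -1.38 ± 0.11 with PPLG-SA (adjusted p = 5.7e-09, edgeR), -2.04 ± 0.11 with PPLG-2V-SA (adjusted p = 3.22e-11, edgeR) and -1.02 ± 0.11 with PPLG-4V-SA (adjusted p = 2.27e-07, edgeR). With POx-SA the difference from untreated was 0.18 (95% interval -0.04 to 0.41, adjusted p = 0.154, edgeR), and the libraries overlapped in CPM. It was called higher than untreated without POx-SA replicate 2 (0.32, adjusted p = 0.0113, edgeR), on plain library totals (0.38, adjusted p = 0.0119, edgeR), where the median of all tested genes lay at 0.22, and on log2(FPKM + 1) (0.41, adjusted p = 0.00647, limma), where it lay at 0.15. In order, the group means were 2445 CPM with LPS, 937 with LPS + POx-SA, 825 without treatment, 408 with LPS + PPLG-4V-SA, 317 with LPS + PPLG-SA and 201 with LPS + PPLG-2V-SA. In CPM, neighbours in this order differed except LPS + POx-SA from untreated, and LPS + PPLG-4V-SA from LPS + PPLG-SA, which differed by 0.36 (adjusted p = 0.0883, edgeR).

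Ratios within a library gave the same order. Counts of Zfp36 per count of Elavl1 were 9.28 ± 2.85 with LPS + POx-SA, 3.35 ± 0.0814 with LPS + PPLG-SA, 1.99 ± 0.0711 with LPS + PPLG-2V-SA and 4.53 ± 0.191 with LPS + PPLG-4V-SA. The ratio was 28.1 ± 1.71 with LPS alone and 8.01 ± 0.589 without treatment (SD, n = 3 each).

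**Figure D3:**
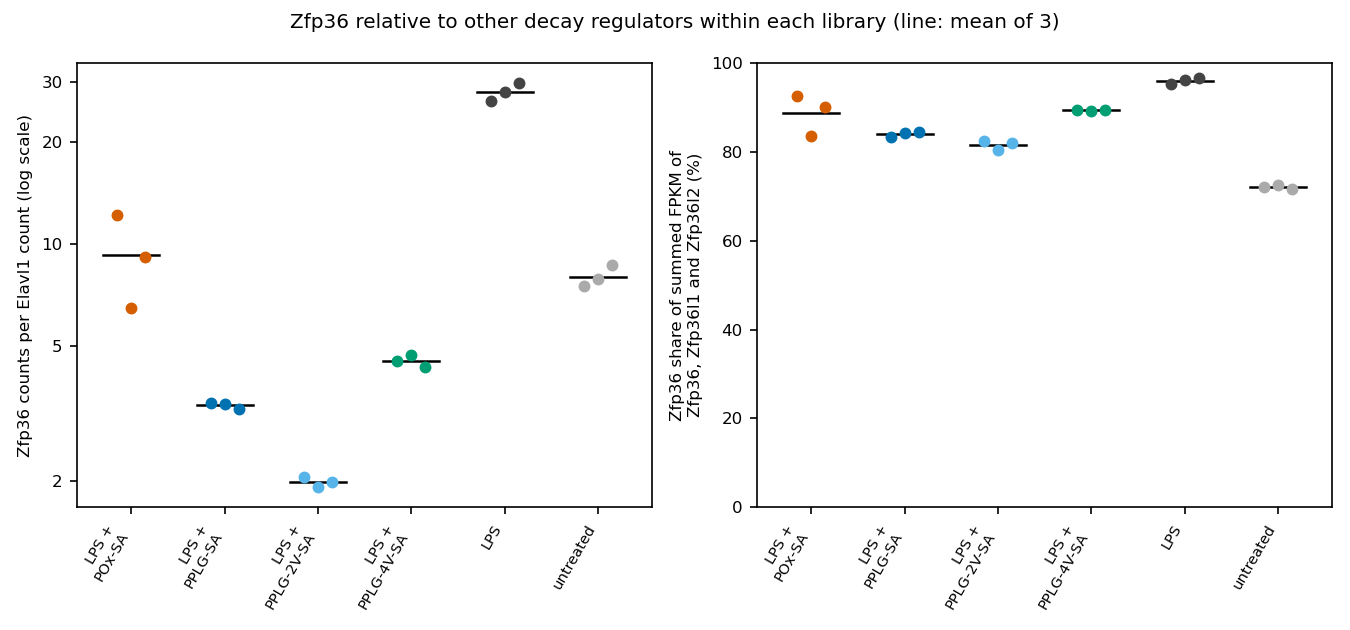
Left, counts of Zfp36 per count of Elavl1 in each library (log axis); right, the share of Zfp36 in the summed FPKM of Zfp36, Zfp36l1 and Zfp36l2 (percent); points are libraries and lines are means of 3. The ratio runs from 1.92 to 2.06 with LPS + PPLG-2V-SA up to 26.4 to 29.8 with LPS, while the share is lowest in untreated libraries (71.7% to 72.6%).

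Zfp36l2 and Zc3h12a fell with the 3 PPLG polymers and were not called with POx-SA. Zfp36l2 had 165, 283 and 191 CPM with LPS + POx-SA, 99.8, 93.3 and 86.5 CPM with LPS + PPLG-SA, 61.1, 61.6 and 62.1 CPM with LPS + PPLG-2V-SA, and 72.8, 75.2 and 68.6 CPM with LPS + PPLG-4V-SA. The LPS libraries had 222, 172 and 161 CPM, above every PPLG library and overlapping the POx-SA libraries. Its log2 fold changes against LPS were -0.99 ± 0.16 with PPLG-SA (adjusted p = 3.55e-05, edgeR), -1.59 ± 0.16 with PPLG-2V-SA (adjusted p = 1.49e-07, edgeR) and -1.36 ± 0.16 with PPLG-4V-SA (adjusted p = 1.35e-06, edgeR). With POx-SA it was 0.20 (95% interval -0.12 to 0.53, adjusted p = 0.294, edgeR), and 0.39 and called without POx-SA replicate 1 (adjusted p = 0.0361, edgeR).

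Zfp36l2 thus stood lower after LPS and a PPLG polymer than after LPS, and lower after LPS than without treatment. Against untreated libraries its log2 fold change was -1.43 ± 0.16 with POx-SA, -2.63 ± 0.16 with PPLG-SA, -3.22 ± 0.17 with PPLG-2V-SA and -3.00 ± 0.17 with PPLG-4V-SA, with adjusted p at most 5.5e-07 (edgeR).

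Zc3h12a had 121, 73.4 and 86.8 CPM with LPS + POx-SA, 27.7, 29.2 and 26.8 CPM with LPS + PPLG-SA, 49.9, 46.8 and 52.2 CPM with LPS + PPLG-2V-SA, and 39.5, 41.2 and 37.3 CPM with LPS + PPLG-4V-SA. The LPS libraries had 108, 123 and 106 CPM, and no PPLG library reached them. Its log2 fold changes against LPS were -2.01 ± 0.14 with PPLG-SA (adjusted p = 2.2e-09, edgeR), -1.18 ± 0.13 with PPLG-2V-SA (adjusted p = 7.51e-07, edgeR) and -1.52 ± 0.14 with PPLG-4V-SA (adjusted p = 6.16e-08, edgeR). With POx-SA it was -0.27 (95% interval -0.54 to 0.01, adjusted p = 0.111, edgeR). That difference was called without POx-SA replicate 1 (-0.46, adjusted p = 0.00143, edgeR) and on deposited FPKM with limma (-0.39, adjusted p = 0.0441).

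Against untreated libraries Zc3h12a was also lower with each PPLG polymer, by log2 fold changes of -1.51 ± 0.14 with PPLG-SA, -0.68 ± 0.13 with PPLG-2V-SA and -1.02 ± 0.14 with PPLG-4V-SA (adjusted p at most 0.000194, edgeR). The call for PPLG-2V-SA was lost on plain library totals, where the log2 fold change was -0.21 and the median of all tested genes lay at 0.52.

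Zfp36l1 was not called against LPS with any polymer. Its means were 26.0 ± 9.17 CPM with LPS + POx-SA, 30.7 ± 0.894 with LPS + PPLG-SA, 29.9 ± 1.67 with LPS + PPLG-2V-SA and 27.5 ± 1.35 with LPS + PPLG-4V-SA, against 25.0 ± 1.27 CPM with LPS (SD, n = 3 each). None of the 4 differences from LPS was called by edgeR (also none at an unadjusted p below 0.05, and none by DESeq2), with log2 fold changes of 0.06 to 0.30. The widest upper bound of their 95% intervals was 0.63, for PPLG-SA. In the 2 groups alone Zfp36l1 was called higher with PPLG-SA (0.28, adjusted p = 0.0402, edgeR). Under other scalings it was called higher with PPLG-SA, at 0.41 on plain library totals and 0.35 on log2(FPKM + 1), and with PPLG-2V-SA, at 0.46 and 0.40. The medians of all tested genes then lay at 0.11 and 0.060 for PPLG-SA and at 0.24 and 0.13 for PPLG-2V-SA. Against untreated libraries Zfp36l1 was lower with every polymer, by log2 fold changes of -1.38 to -1.62.

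The share of Zfp36 in the family's summed FPKM stood between the LPS and untreated values in every polymer group. It was 88.8% ± 4.64 with LPS + POx-SA, 84.1% ± 0.630 with LPS + PPLG-SA, 81.6% ± 0.991 with LPS + PPLG-2V-SA and 89.4% ± 0.147 with LPS + PPLG-4V-SA, against 96.0% ± 0.670 with LPS (SD, n = 3 each). The summed FPKM of the family was 578 ± 100.4 with LPS + POx-SA, 241 ± 5.94 with LPS + PPLG-SA, 167 ± 9.91 with LPS + PPLG-2V-SA and 306 ± 10.7 with LPS + PPLG-4V-SA. All 4 lie below the LPS value of 1493 ± 46.7, and the 3 PPLG values lie below the untreated value of 528 ± 11.1.

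Rc3h1 had the largest rise of the 9 genes with POx-SA. It had 348, 685 and 268 CPM with LPS + POx-SA, against 233, 187 and 108 CPM with LPS, and every POx-SA library lay above every LPS library. Its log2 fold change was 1.30 ± 0.27 (adjusted p = 0.000845, edgeR). It was 0.82 without POx-SA replicate 2, the highest library, and 1.31 without replicate 3 of both groups, and it was called each time, as under all 17 alternatives. In the fit of the 2 groups alone its adjusted p was 0.0446 (edgeR). The 531 genes with long transcripts had a median log2 fold change of 0.22 in this comparison.

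Rc3h1 had 281, 307 and 275 CPM with LPS + PPLG-SA, 118, 122 and 101 CPM with LPS + PPLG-2V-SA and 142, 174 and 165 CPM with LPS + PPLG-4V-SA. With PPLG-SA its log2 fold change against LPS was 0.71 ± 0.27 (adjusted p = 0.0317, edgeR), beside a median of 0.46 for the genes with long transcripts. This call was lost without LPS replicate 3, at 0.44 (adjusted p = 0.144, edgeR), and also without LPS replicate 2 or any 1 of the PPLG-SA libraries. It was 0.44 and called (adjusted p = 0.0439, edgeR) with LPS replicate 3 and LPS + POx-SA replicate 3 both left out. With PPLG-2V-SA the log2 fold change was -0.63 ± 0.27 (adjusted p = 0.0512, edgeR). That difference was called under 9 of 17 alternatives, among them the fit with the replicate number as a block (-0.61, adjusted p = 0.0388, edgeR) and the fit without LPS replicate 3 (-0.91, adjusted p = 0.00391, edgeR). With PPLG-4V-SA it was -0.13 ± 0.27 (adjusted p = 0.696, edgeR), and -0.41 without LPS replicate 3 and LPS + POx-SA replicate 3 (adjusted p = 0.0552, edgeR).

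Rc3h2 had 147, 182 and 74.9 CPM with LPS + POx-SA, 125, 125 and 117 CPM with LPS + PPLG-SA, 71.6, 69.1 and 55.2 CPM with LPS + PPLG-2V-SA and 71.2, 87.3 and 75.5 CPM with LPS + PPLG-4V-SA. The LPS libraries had 107, 105 and 47.3 CPM and overlapped all but the PPLG-SA group. None of the 4 differences was called by edgeR in the fit of all libraries. The one nearest was POx-SA, at 0.64 ± 0.27 (adjusted p = 0.0616, edgeR), and it was called with the replicate block (0.64, adjusted p = 0.0315, edgeR). Without the same 2 libraries as before, LPS replicate 3 and LPS + POx-SA replicate 3, Rc3h2 was called lower with PPLG-2V-SA (-0.72, adjusted p = 1.56e-05, edgeR) and with PPLG-4V-SA (-0.47, adjusted p = 0.00163, edgeR), and higher with POx-SA (0.65, adjusted p = 0.000263, edgeR). With PPLG-SA it then differed by 0.19 (adjusted p = 0.15, edgeR), against 0.50 with all libraries (adjusted p = 0.118, edgeR) and 0.56 with the replicate block, where it was called (adjusted p = 0.0461, edgeR). The 2 left-out libraries were the lowest of their groups for Rc3h2, so calls made without them are no separate support.

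**Figure D4:**
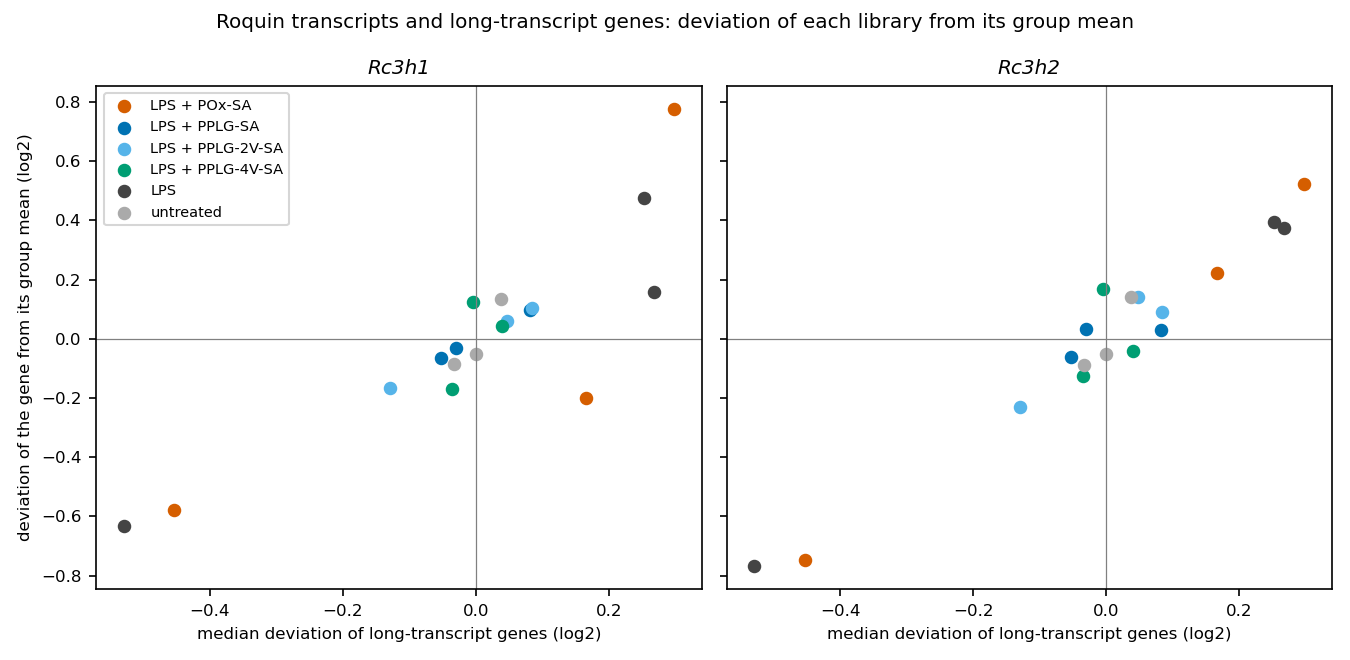
Deviation of Rc3h1 (left) and Rc3h2 (right) in each library from its group mean (y axis, log2 CPM) against the median deviation of the 531 genes with an implied transcript length above 8000 bases (x axis, log2); points are libraries, coloured by group. LPS replicate 3 and LPS + POx-SA replicate 3 lie lowest on both axes, at -0.63 and -0.58 for Rc3h1 and at -0.77 and -0.75 for Rc3h2.

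The Roquin genes were also uneven among the libraries of these 2 groups. The SD of log2 CPM within the LPS group was 0.57 for Rc3h1 and 0.67 for Rc3h2, against a median of 0.23 over all tested genes. Within LPS + POx-SA it was 0.70 and 0.66, against a median of 0.29. Within the LPS + PPLG-SA group it was 0.085 and 0.053, against a median of 0.10. Zfp36 had an SD of 0.030 in the LPS group and 0.25 with LPS + POx-SA. Whether the spread of the Roquin genes follows that of long transcripts was not tested.

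Elavl1 varied least of the 9 genes, with group means of 87.2 to 104 CPM. It had 90.9, 121 and 100.1 CPM with LPS + POx-SA, against 91.7, 85.9 and 83.9 CPM with LPS. These values overlapped, and the log2 fold change of 0.25 ± 0.10 (adjusted p = 0.038, edgeR) was no longer called in 9 of 17 alternatives. Among them were the fits without POx-SA replicate 2, at 0.15, without LPS replicate 2 or 3, and of the 2 groups alone, both without the replicate block (0.26, adjusted p = 0.26, edgeR) and with it (0.25, adjusted p = 0.13, edgeR). With the PPLG polymers its means were 94.8 ± 0.859 CPM for PPLG-SA, 101 ± 5.01 for PPLG-2V-SA and 90.2 ± 0.857 for PPLG-4V-SA, and no difference from LPS was called. The largest of these log2 fold changes was 0.21 (95% interval 0.01 to 0.41, adjusted p = 0.0706, edgeR), with PPLG-2V-SA. On plain library totals Elavl1 was called higher with all 3 PPLG polymers, at 0.23 with PPLG-SA, 0.41 with PPLG-2V-SA and 0.22 with PPLG-4V-SA, with the medians of all genes at 0.11, 0.24 and 0.19.

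Hnrnpd was not called with any polymer against LPS either. Its means were 214 ± 40.0 CPM with LPS + POx-SA, 193 ± 5.95 with LPS + PPLG-SA, 212 ± 26.8 with LPS + PPLG-2V-SA and 161 ± 7.40 with LPS + PPLG-4V-SA, against 191 ± 12.2 CPM with LPS. The log2 fold change furthest from 0 was -0.25 with PPLG-4V-SA (95% interval -0.49 to 0.00, adjusted p = 0.0849, edgeR), which was called on log2(FPKM + 1) (-0.29, adjusted p = 0.0143, limma). With PPLG-2V-SA Hnrnpd was called higher on plain library totals (0.36, adjusted p = 0.00826, edgeR). With POx-SA it was called higher without POx-SA replicate 1 (0.29, adjusted p = 0.0492, edgeR). All 4 polymer groups lay below the 347 ± 7.20 CPM of untreated libraries, by log2 fold changes of -0.70 to -1.11. On plain library totals the difference of PPLG-2V-SA from untreated was -0.23 and was not called, with the median of all genes at 0.52. Rows for Hnrnpd and Rc3h2 overlap other annotated genes, and the strand setting of the counting is not given in the sources used here, so some of their reads are uncertain.

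Khsrp had 113, 133 and 115 CPM with LPS + POx-SA and 125, 113 and 124 CPM with LPS + PPLG-SA, against 168, 141 and 135 CPM with LPS, without overlap. Its log2 fold changes were -0.30 ± 0.10 with POx-SA (adjusted p = 0.0151, edgeR) and -0.29 ± 0.10 with PPLG-SA (adjusted p = 0.0134, edgeR). Both calls rested in part on LPS replicate 1, the highest library, without which the values were -0.20 and -0.19 and were not called. That with POx-SA was also lost without POx-SA replicate 1 or 3 and in the 2 groups alone, both without the replicate block (-0.29, adjusted p = 0.208, edgeR) and with it (-0.29, adjusted p = 0.093, edgeR). That with PPLG-SA was also lost without PPLG-SA replicate 2 and on plain library totals. The log2 fold change was -0.02 with PPLG-2V-SA and -0.16 with PPLG-4V-SA, and neither was called. The second was called without LPS replicate 3 (-0.24, adjusted p = 0.0463, edgeR).

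Counted together, 2 of the 9 regulators rose and 2 fell with POx-SA against LPS, beside 22.2% of all tested genes called higher and 24.1% called lower. With PPLG-SA, 1 rose and 4 fell, beside 29.2% higher and 30.7% lower. With PPLG-2V-SA 3 fell, beside 30.8% higher and 30.2% lower, and with PPLG-4V-SA 3 fell, beside 28.0% higher and 27.1% lower. By edgeR 0 rose with either of these 2 polymers. At an unadjusted p below 0.05, 1 was higher with PPLG-2V-SA and 0 with PPLG-4V-SA, and DESeq2 called 0 higher with each. On plain library totals 3 were called higher with PPLG-2V-SA (Zfp36l1, Elavl1 and Hnrnpd) and 1 with PPLG-4V-SA (Elavl1). The median log2 fold change of the 9 genes was 0.17 with POx-SA and 0.02 with PPLG-SA, and it was -0.40 with PPLG-2V-SA and -0.16 with PPLG-4V-SA. Over all tested genes it was 0.00, 0.00, 0.03 and 0.02 in the same order. These counts of 9 genes are descriptions and do not set the members apart from all genes. The 4 comparisons share the LPS libraries. Another scaling moved the split of all genes. With POx-SA it was 2992 higher and 3247 lower, and on deposited FPKM 2232 and 3934. With PPLG-2V-SA it was 4152 and 4070, and on plain library totals 5339 and 3123. With PPLG-4V-SA it was 3775 and 3651, and on plain library totals 4885 and 2776.

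Polymers were also set against each other in 6 pairs, with the limit that doses and times are not given. Zfp36 was lower with each PPLG polymer than with POx-SA, by log2 fold changes of -1.56 ± 0.11 with PPLG-SA, -2.22 ± 0.11 with PPLG-2V-SA and -1.20 ± 0.11 with PPLG-4V-SA (adjusted p at most 6.29e-08, edgeR). Zfp36l2 was lower by -1.19 ± 0.16, -1.79 ± 0.16 and -1.56 ± 0.16 in the same order (adjusted p at most 4.79e-06, edgeR). Zc3h12a was lower by -1.75 ± 0.14, -0.92 ± 0.13 and -1.25 ± 0.14 (adjusted p at most 1.22e-05, edgeR). No PPLG library overlapped a POx-SA library for these 3 genes.

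Of the other members against POx-SA, Rc3h1 was lower with PPLG-2V-SA (-1.93 ± 0.28, adjusted p = 1.02e-05, edgeR) and PPLG-4V-SA (-1.43 ± 0.27, adjusted p = 0.000244, edgeR). Rc3h2 was lower with PPLG-2V-SA (-1.04 ± 0.27, adjusted p = 0.00285, edgeR) and PPLG-4V-SA (-0.79 ± 0.27, adjusted p = 0.0191, edgeR). The second of these was lost without POx-SA replicate 2, at -0.55, without PPLG-4V-SA replicate 1 or 3, and on plain library totals. Without LPS replicate 3 and LPS + POx-SA replicate 3, Rc3h1 lay at -0.88, -2.23 and -1.73 and Rc3h2 at -0.46, -1.37 and -1.12 with PPLG-SA, PPLG-2V-SA and then PPLG-4V-SA, and all 6 differences were called (adjusted p at most 0.00171, edgeR). With all libraries Rc3h1 and Rc3h2 differed between PPLG-SA and POx-SA by -0.59 and -0.14 and were not called. Hnrnpd was lower with PPLG-4V-SA (-0.41 ± 0.12, adjusted p = 0.00613, edgeR), though not on plain library totals (-0.15). Khsrp was higher with PPLG-2V-SA (0.28 ± 0.10, adjusted p = 0.0168, edgeR). That call was lost without POx-SA replicate 1 or 3, without PPLG-2V-SA replicate 1 and with the replicate block in the 2 groups alone (0.26, adjusted p = 0.131, edgeR). In all, 3 members were called between PPLG-SA and POx-SA, 6 between PPLG-2V-SA and POx-SA and 6 between PPLG-4V-SA and POx-SA, beside 57.7%, 64.0% and 57.9% of all tested genes called in either direction.

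Among the PPLG polymers, PPLG-2V-SA differed from PPLG-SA in 6 members, beside 27.9% of all tested genes. Zfp36 was lower with PPLG-2V-SA by -0.66 ± 0.11 (adjusted p = 0.000257, edgeR), Zfp36l2 by -0.60 ± 0.16 (adjusted p = 0.00848, edgeR) and Rc3h1 by -1.34 ± 0.27 (adjusted p = 0.0015, edgeR). Zc3h12a was higher with PPLG-2V-SA by 0.83 ± 0.14 (adjusted p = 0.000258, edgeR), so that Zfp36 and Zc3h12a stood in opposite orders. Rc3h2 was lower (-0.91 ± 0.27, adjusted p = 0.0191, edgeR) and Khsrp higher (0.27 ± 0.09, adjusted p = 0.0421, edgeR). Of these, the call of Rc3h2 was lost without PPLG-SA replicate 1 or 2 or PPLG-2V-SA replicate 3, and that of Khsrp without any 1 of the 6 libraries.

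PPLG-4V-SA differed from PPLG-2V-SA in 2 members, beside 12.0% of all tested genes. Zfp36 was higher with PPLG-4V-SA by 1.02 ± 0.11 (adjusted p = 5.73e-06, edgeR). Hnrnpd was lower by -0.40 ± 0.12 (adjusted p = 0.0332, edgeR), a call lost without any 1 of 5 of the 6 libraries, PPLG-2V-SA replicate 3 being the exception.

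Between PPLG-4V-SA and PPLG-SA, edgeR called 0 members, beside 1.65% of all tested genes, and DESeq2 called 3, beside 645 of 12825 genes. By edgeR 6 members had an unadjusted p below 0.05, and the share of all genes at that threshold was not counted. The libraries of the 2 groups did not overlap for any of the 9 genes, beside 39.1% of all tested genes without overlap. Zc3h12a was at 39.5, 41.2 and 37.3 CPM with PPLG-4V-SA, against 27.7, 29.2 and 26.8 CPM with PPLG-SA, a log2 fold change of 0.50 (95% interval 0.21 to 0.78, adjusted p = 0.0723, edgeR). Rc3h1 differed by -0.84 (95% interval -1.41 to -0.27, adjusted p = 0.115, edgeR). A fit of these 2 groups alone called 6 members, beside 3369 of 12332 genes.

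Against untreated libraries, 5 members were called with POx-SA, 6 with PPLG-SA, 7 with PPLG-2V-SA and 7 with PPLG-4V-SA, beside 58.3%, 67.9%, 74.0% and 70.3% of all tested genes. The 1 called higher in CPM was Rc3h1 with POx-SA, at 348, 685 and 268 CPM, against 241, 235 and 274 CPM in untreated libraries. Its log2 fold change was 0.79 ± 0.27 (adjusted p = 0.0182, edgeR), and the groups overlapped. It was not called without POx-SA replicate 2 (0.32, adjusted p = 0.213, edgeR) or without untreated replicate 2, and was 1.07 and called without both LPS replicate 3 and LPS + POx-SA replicate 3 (adjusted p = 3.29e-05, edgeR). Rc3h2 with POx-SA was at 0.61 with all libraries (adjusted p = 0.0628, edgeR), and at 0.92 and called without these libraries. More members were higher than untreated under other scalings. With POx-SA, Zfp36, Zc3h12a, Rc3h1 and Rc3h2 were called higher both on plain library totals and on log2(FPKM + 1), and Elavl1 on the second scale only. Elavl1 was called higher with all 3 PPLG polymers on both scales, at 0.26 and 0.27 with PPLG-SA, 0.44 and 0.44 with PPLG-2V-SA and 0.25 and 0.26 with PPLG-4V-SA in this order of scales. The plain-total values lie below the medians of all genes, which were 0.42, 0.52 and 0.50. Rc3h2 was called higher with PPLG-SA on both scales, at 0.86 and 0.81. Zfp36l1, Zfp36l2, Hnrnpd and Khsrp were called lower in all 4 comparisons. Rc3h1 was called lower with PPLG-2V-SA (-1.14 ± 0.27, adjusted p = 0.00114, edgeR) and with PPLG-4V-SA (-0.64 ± 0.27, adjusted p = 0.0434, edgeR), the second of which was lost without any 1 of the 6 libraries compared. The exceptions on plain library totals were Hnrnpd with PPLG-2V-SA, and Khsrp, which lay at 0.12 with PPLG-2V-SA and at -0.047 with PPLG-4V-SA while the median of all genes lay at 0.52 and 0.50.

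Levels per length show how the set was weighted in each condition. In LPS libraries Zfp36, at 1434 FPKM, stood far above Zfp36l2 (51.2 FPKM), Zc3h12a (40.1 FPKM), Khsrp (35.9 FPKM), Hnrnpd (23.6 FPKM), Rc3h1 (15.0 FPKM), Elavl1 (13.7 FPKM), Rc3h2 (9.01 FPKM) and Zfp36l1 (8.29 FPKM). Zfp36 made up 71.1% ± 7.25 of the summed FPKM of the 9 genes with LPS + POx-SA, 56.6% ± 0.410 with LPS + PPLG-SA, 47.1% ± 2.11 with LPS + PPLG-2V-SA and 65.8% ± 0.935 with LPS + PPLG-4V-SA. The share was 87.9% ± 1.34 with LPS and 58.3% ± 0.243 without treatment (SD, n = 3 each). With LPS + PPLG-2V-SA, Khsrp (39.8 ± 1.74 FPKM), Hnrnpd (26.5 ± 3.17 FPKM), Zc3h12a (20.1 ± 0.831 FPKM), Zfp36l2 (19.4 ± 0.289 FPKM) and Elavl1 (17.7 ± 0.667 FPKM) followed Zfp36 (136 ± 9.70 FPKM).

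The genes whose 6 group means most resembled those of each member were found by the root mean square difference of centred log2 CPM over the 6 groups, among 10172 genes. Nearest to Zfp36 were Ccl4, which encodes the chemokine MIP-1β (0.19), Junb, an AP-1 transcription factor subunit (0.20), and Dusp2, a phosphatase of MAP kinases (0.28). Junb had means of 583 CPM with LPS + POx-SA, 209 with LPS + PPLG-SA, 192 with LPS + PPLG-2V-SA, 289 with LPS + PPLG-4V-SA, 1801 with LPS and 619 without treatment. The likest genes were Icam5, Ptms and Ube2e2 for Zfp36l1, and Fbxl2, Tmsb4x and Cds1 for Zfp36l2. For Zc3h12a they were Yrdc, Il10ra and Tmem104, for Rc3h1 Cflar, Msh3 and Tbc1d15, and for Hnrnpd Txlng, Eif4ebp2 and Arih1.

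Among 33 tested transcripts of 35 listed as carrying AU-rich or stem-loop elements, most fell with each polymer. With POx-SA 3 rose and 23 fell against LPS, with PPLG-SA 5 and 23, with PPLG-2V-SA 2 and 26, and with PPLG-4V-SA 5 and 22. Their median log2 fold changes were -1.12, -1.26, -1.41 and -1.11, against 0.00, 0.00, 0.03 and 0.02 over all tested genes. With LPS against no treatment 14 rose and 12 fell, at a median of 0.13. Of all tested genes, 22.2% were called higher and 24.1% lower with POx-SA, and 29.2% and 30.7% with PPLG-SA. The shares were 30.8% and 30.2% with PPLG-2V-SA, 28.0% and 27.1% with PPLG-4V-SA, and 30.8% and 28.4% with LPS. The list was chosen with earlier results of these data known, so its contrast with all genes is a description and was not tested. These counts describe steady-state levels, and decay rates were not measured.

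Tnf, the best known target of tristetraprolin, had means of 823 ± 92.4 CPM with LPS + POx-SA, 302 ± 7.15 with LPS + PPLG-SA, 493 ± 36.0 with LPS + PPLG-2V-SA and 389 ± 22.5 with LPS + PPLG-4V-SA. It had 839 ± 138 CPM with LPS and 323 ± 11.4 without treatment (SD, n = 3 each). Tnf fell with the 3 PPLG polymers by 1.47 ± 0.12, 0.77 ± 0.11 and 1.11 ± 0.12 on the log2 scale, and with POx-SA its log2 fold change was -0.03 ± 0.11 (adjusted p = 0.862, edgeR). Zfp36 fell in all 4 of these groups.

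Il6 and Il1b, which encode proinflammatory cytokines, rose with PPLG-SA and PPLG-4V-SA while most of the list fell. Il1b had 143 ± 7.70 CPM with LPS + PPLG-SA and 151 ± 19.5 with LPS + PPLG-4V-SA, against 17.6 ± 0.981 CPM with LPS, and rose by 3.02 ± 0.21 and 3.10 ± 0.21 on the log2 scale. Il6 had 46.3 ± 0.406 CPM with LPS + PPLG-SA and 61.3 ± 5.35 with LPS + PPLG-4V-SA, against 17.6 ± 4.55 CPM with LPS, and rose by 1.40 ± 0.21 and 1.80 ± 0.21. With PPLG-2V-SA the log2 fold change of Il6 was -1.09 ± 0.22 and that of Il1b was 0.69 ± 0.21, both called. Il10, which encodes an anti-inflammatory cytokine, fell with every polymer, to 2.25 ± 1.01 CPM with LPS + POx-SA, against 142 ± 37.2 CPM with LPS.

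Further members of the panel fell with most polymers. Csf2 and Ptgs2, which encode GM-CSF and cyclooxygenase-2, fell with all 4, and Ptgs2 had 419 ± 15.1 CPM with LPS + PPLG-2V-SA, against 7247 ± 2535 CPM with LPS. Cxcl2, a neutrophil-attracting chemokine, had 57.8 ± 1.17 CPM with LPS + PPLG-SA, against 911 ± 162 CPM with LPS, and its log2 fold change was 0.21 ± 0.12 with POx-SA (adjusted p = 0.166, edgeR). Ccl2, a monocyte-attracting chemokine, fell with POx-SA to 31.9 ± 6.22 CPM, against 261 ± 38.7 CPM with LPS, and rose with PPLG-4V-SA to 519 ± 43.5 CPM.

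Genes that act with the regulators were counted by list. Beside these counts, 30.8% of all tested genes were called higher and 28.4% lower with LPS against no treatment. Against LPS the shares were 22.2% and 24.1% with POx-SA, and 29.2% and 30.7% with PPLG-SA. With PPLG-2V-SA they were 30.8% and 30.2%, and with PPLG-4V-SA 28.0% and 27.1%. These shares apply to the list counts below that name no other scale, and no list was tested against all genes. On log2(FPKM + 1), 5927 of 13482 tested genes were called higher and 2304 lower with LPS. Against LPS, the numbers there were 5178 and 3082 with PPLG-2V-SA, and 4810 and 2723 with PPLG-4V-SA. Of 17 tested genes listed for the RNA exosome, the Ski complex and their partners, which serve decay from the 3′ end, 13 rose with LPS. Among them were Exosc9 (60.2 CPM with LPS and 22.9 CPM without treatment) and Exosc2. By edgeR 0 fell (1 at an unadjusted p below 0.05). Against LPS, 2 rose and 4 fell with POx-SA, 3 and 10 with PPLG-SA, 3 and 6 with PPLG-2V-SA, and 4 and 7 with PPLG-4V-SA. On deposited FPKM the counts with PPLG-2V-SA were 7 and 2, and with PPLG-4V-SA 5 and 3. Mtrex, an RNA helicase that feeds the exosome, rose with all 4 polymers, to 93.6 CPM with LPS + PPLG-2V-SA, against 39.9 CPM with LPS.

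Of 18 genes listed for deadenylase complexes and their partners, 6 rose and 4 fell with LPS (12 and 1 on deposited FPKM). Against LPS, 5 rose and 2 fell with POx-SA, 7 and 6 with PPLG-SA, 8 and 6 with PPLG-2V-SA, and 7 and 6 with PPLG-4V-SA. Btg1, which stimulates deadenylation, had 286 CPM with LPS + PPLG-2V-SA, 1119 CPM with LPS and 3600.2 CPM without treatment. Of 19 genes of decapping and 5′ to 3′ decay, 6 rose and 4 fell with LPS (12 and 2 on deposited FPKM), 9 and 1 with POx-SA, 7 and 7 with PPLG-SA, 6 and 7 with PPLG-2V-SA, and 6 and 8 with PPLG-4V-SA. Ddx6, a helicase of that pathway, had 135 CPM with LPS + PPLG-SA, 272 CPM with LPS and 119 CPM without treatment.

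Kinases, phosphatases and proteases that act on these regulators numbered 18. Of these 6 rose and 6 fell with LPS (9 and 2 on deposited FPKM), and 7 and 8 with POx-SA, 5 and 7 with PPLG-SA, 4 and 8 with PPLG-2V-SA and 4 and 8 with PPLG-4V-SA. Dusp1, a phosphatase that switches off the p38 pathway, fell with every polymer, to 64.9 ± 14.2 CPM with LPS + POx-SA and 7.05 ± 0.713 CPM with LPS + PPLG-2V-SA, against 125 ± 8.91 CPM with LPS. Mapkapk2 encodes MK2, the kinase that phosphorylates tristetraprolin, and it had 745 CPM with LPS, against 1405 CPM without treatment. Malt1, a protease that cleaves Regnase-1 and Roquin proteins, rose with the 3 PPLG polymers, to 233 ± 9.05 CPM with PPLG-SA, 143 ± 13.7 with PPLG-2V-SA and 177 ± 9.94 with PPLG-4V-SA, against 65.8 ± 8.75 CPM with LPS.

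Of 28 further binders of AU-rich elements and 3′ ends, 22 were tested, and 9 rose and 5 fell with LPS (11 and 1 on deposited FPKM). Against LPS, 6 rose and 6 fell with POx-SA, 10 and 9 with PPLG-SA, 9 and 7 with PPLG-2V-SA, and 8 and 7 with PPLG-4V-SA. Arid5a, which protects Il6 mRNA from Regnase-1, had 47.2 ± 12.1 CPM with LPS, against 6.80 ± 1.36 CPM without treatment, and fell to 11.0 ± 4.72 CPM with LPS + POx-SA. Zc3h12d, a relative of Zc3h12a, fell to 0.606 ± 0.190 CPM with LPS + PPLG-2V-SA, against 17.7 ± 3.19 CPM with LPS. Ybx1, a cold-shock domain RNA-binding protein, rose with all 4 polymers, to 1215 CPM with LPS + PPLG-SA, against 413 CPM with LPS.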

How the data were processed

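RNA of RAW264.7 cells was measured in 18 libraries, grouped by the treatment in the labels. In the deposited table of counts each value is a whole number of reads, not normalized, as the values themselves show, and the deposited FPKM table holds values scaled by the authors to length and library total. Build GRCm39 and the tool CASAVA come from the submitters' processing notes. Aligner, counter and annotation were not given in those sources. 0 columns belong to no sample.

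The filter was filterByExpr with a minimum count of 10 and a minimum total of 15, and 13482 of 35510 genes passed it. Differences were tested with edgeR 4.0.16 (quasi-likelihood, R 4.3.3), with TMM factors (0.812 to 1.15), all 18 libraries in 1 fit (12 residual degrees of freedom, common dispersion 0.0219), and Benjamini-Hochberg adjustment within each of 15 comparisons. The script was tested on simulated data, with 1 spread of each gene for all groups, unlike these data. There 29.9% to 43.3% of 1.5-fold changes were called, by comparison. For 2-fold changes it was 67.2% to 86.6%, and for 4-fold changes 86.4% to 97.0%. Tested genes held at least 99.9% of counts. Implied length is the ratio of counts to FPKM. Alternatives were the size factors of DESeq2, plain library totals, DESeq2 1.42.0, no filter, a filter of 1 CPM in 3 libraries, limma 3.58.1 on log2(FPKM + 1) and log2(FPKM + 0.1), fits of 2 groups, replicate blocks and left-out libraries. On FPKM, fold changes are on the log2 scale with the pseudocount added, which understates low genes.

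All 9 members are named, with a panel of 8 transcripts. From the other lists, called genes with the 2 largest or 2 smallest log2 fold changes in a comparison, no overlap and at least 5 CPM could be named. The likeness rule names 3 genes for each member whose group means span at least 1 log2 unit. The members, lists and rules were chosen with earlier results of these data known.

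Whether replicate numbers pair libraries was checked by correlating each library's deviations from its group mean over 10055 genes. All 3 same-number correlations exceeded 0.1 for LPS + POx-SA and LPS (0.276, 0.301 and 0.908), LPS + PPLG-2V-SA and LPS (0.151, 0.363 and 0.483), and LPS + PPLG-2V-SA and LPS + POx-SA (0.112, 0.222 and 0.451). The value of 0.908 is that of the replicate 3 libraries in which long transcripts were low. Over all comparisons 15 of 45 same-number pairs exceeded 0.1, and 6 of 18 libraries correlated best with their own number. The labels do not say that the numbers pair libraries, and these correlations do not settle it. The main fit has no replicate block, and fits with one are given as alternatives only.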

Additional observations from a re-analysis of the deposited data

How the results depend on the processing

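In the 5 comparisons of LPS with no treatment and of a polymer with LPS, Zfp36 was called in the same direction under all 17 alternatives, as were Zfp36l1, Zfp36l2, Zc3h12a and Hnrnpd with LPS, and Zfp36l2 and Zc3h12a with the PPLG polymers. Over all comparisons, 1911 of the values of members under an alternative kept direction and side of the threshold, 95 lost a call and 135 gained one with the sign kept, 22 changed sign with a call on at least 1 side, and 78 changed sign with neither value called. The causes were not tested.

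The number of members called moved as follows. With POx-SA against LPS it was 4, and 2 in a fit of these 2 groups alone, beside 6239 of 13482 genes and 3061 of 12418. With PPLG-SA against LPS it was 5, and 3 to 4 with 1 library left out. With PPLG-2V-SA against LPS it was 3, with 6 on plain library totals and 5 on either FPKM scale. It was 5 without replicate 3 of LPS and of LPS + POx-SA, and 3 to 5 with 1 library left out. All genes called were 8222 of 13482, with 8462 on plain library totals, 8260 on FPKM + 1 and 8240 on FPKM + 0.1. With PPLG-4V-SA against LPS it was 3, and 5 without both replicates 3. For PPLG-SA against POx-SA it was 3, and 5 without both, and 3 to 6 with 1 library left out. For PPLG-4V-SA against PPLG-SA it was 0, with 3 by DESeq2, 1 without a filter, 1 on FPKM + 1 and 6 in the 2 groups alone. All genes called were 223 of 13482, with 645 of 12825 by DESeq2 and 566 of 13482 on FPKM + 1. In the 2 groups alone they were 3369 of 12332. For PPLG-4V-SA against PPLG-2V-SA it was 2, with 6 in the 2 groups alone and 1 to 2 with 1 library left out. All genes called were 1617 of 13482, and 4417 of 12404 in the 2 groups alone. For POx-SA against untreated it was 5, with 8 on plain library totals and 9 on either FPKM scale. All genes called were 7860 of 13482, with 8001 on plain library totals, 8009 on FPKM + 1 and 8094 on FPKM + 0.1.

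The replicate block was added after seeing the data for fits of 2 groups. With it, 6 members were called for PPLG-4V-SA against PPLG-SA, beside 3092 of 12332 genes. For PPLG-4V-SA against PPLG-2V-SA 6 were called, beside 4150 of 12404 genes. No same-number correlation exceeded 0.1 in these comparisons. The check of pairing found 15 of 45 same-number pairs above 0.1, and 6 of 18 libraries correlated best with their own number.

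Log2 fold changes that changed sign, with a call on at least 1 side, on plain library totals, FPKM + 1 and FPKM + 0.1, in this order, were those of Elavl1 for LPS against untreated (0.029, 0.086, 0.092), PPLG-2V-SA against POx-SA (0.25, 0.22, 0.24), and, against untreated, PPLG-4V-SA (0.25, 0.26, 0.28), PPLG-SA (0.26, 0.27, 0.29) and PPLG-2V-SA (0.44, 0.44, 0.46). So did Hnrnpd for PPLG-2V-SA against POx-SA (0.29, 0.22, 0.23) and Khsrp for PPLG-2V-SA against untreated (0.12, 0.15, 0.16). Rc3h2 for LPS against untreated was 0.27 without both replicates 3. Over all genes, the number called moved by over 1.5 times for POx-SA against LPS (6239, and 3061 in the 2 groups alone), PPLG-2V-SA against PPLG-SA (3766, and 6359), PPLG-4V-SA against PPLG-SA (223, and 5 to 3369) and PPLG-4V-SA against PPLG-2V-SA (1617, and 911 to 4417). With 3 libraries a group, small differences are imprecise.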
